A study of Mus musculus with 653 samples.

Results

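The 28 genes described here make cholesterol and fatty acids or control their synthesis, and all 28 were found by symbol in the raw count table of 54195 genes. They were 7 enzymes of the mevalonate arm, 3 enzymes that turn farnesyl diphosphate into lanosterol, 8 enzymes that turn lanosterol into cholesterol, 4 regulators, the sterol carrier Stard4 and 5 enzymes of fatty acid synthesis. Reads were counted for 653 single cells of the mouse embryonic liver, prepared with Smart-seq2, a full-length protocol without molecular identifiers. The cells came from embryos of male Lgr5-EGFP-IRES-creERT2 mice on a C57BL/6 background crossed with MF1 females, and all carried the surface antigen Liv2 and lacked the endothelial marker CD31 and the blood cell marker CD45 at the sort. Both sorts were made at E10.5 and at E13.5. One took Liv2+ cells regardless of GFP (bulk) and the other took cells with GFP from the Lgr5 locus (Lgr5-GFP+), and they gave 362 bulk and 291 Lgr5-GFP+ cells. Of the 653 cells, 414 were from E10.5 and 239 from E13.5, and 80 of the latter were Lgr5-GFP+. The knocked-in reporter follows the Lgr5 locus, and the labels do not tie a cell to an embryo, so a group is a single sample here and the groups could not be tested against each other.

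Cells were placed in lineages by their own reads. A cell with more than 10 reads of exactly 1 of Afp (alpha-fetoprotein, made by hepatoblasts), Klf1 (a transcription factor of red cell precursors) or Pdgfra (a receptor of mesenchymal cells) was called Afp+, Klf1+ or Pdgfra+. At E10.5 this gave 59 Afp+ cells, of which 53 were Lgr5-GFP+, 66 Lgr5-GFP+ and 76 bulk Pdgfra+ cells, and 32 Klf1+ cells, all from the bulk sort. At E13.5 it gave the rest of the 160 Klf1+ cells, 97.7% of them bulk, but only 2 Afp+ and 8 Pdgfra+ cells, so hepatoblasts and mesenchyme could be described at E10.5 alone. A further 272 cells passed for no marker and 10 for several. Between 11 and 20 reads, just inside the threshold, lay 0 cells for Afp, 2 for Klf1 and 10 for Pdgfra, and between 1 and 10 reads, just outside it, lay 25.7%, 31.9% and 20.7% of all cells.

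The labels call every cell a liver hepatoblast cell, and the markers went against that name for most of them. The 11 hepatoblast markers (Alb, Apoa1, Hnf4a and others) summed to 14465 RPM (reads of a gene per 1000000 reads of the same cells) in the Afp+ cells, to 9.73 RPM in the E10.5 Pdgfra+ cells and to 12.1 RPM in the E10.5 Klf1+ cells. The cells without a marker had 168.7 RPM at E10.5, with a median cell of 1.98 RPM, and 15.1 RPM at E13.5. The 10 mesenchyme markers summed to 4337 RPM in the Pdgfra+ cells, against 73.8 RPM in the Afp+ cells. The 11 erythroid markers summed to 2571 RPM in the E10.5 Klf1+ cells and 8056 RPM in the E13.5 Klf1+ cells, against 90.5 RPM in the Pdgfra+ cells. Hnf4a, which defines hepatoblasts, was at 0.04 RPM in the Pdgfra+ cells. Cells carried 463347 to 2279700 reads, and the E10.5 Klf1+ cells had the most genes detected of the lineages compared, with a median of 6764 a cell against 5814 in the Pdgfra+ and 5357 in the Afp+ cells.

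Cholesterol is built from acetyl-CoA in the endoplasmic reticulum and cytosol. The mevalonate arm makes isoprenoid units, squalene is joined and closed into lanosterol, and a last series of enzymes trims lanosterol to cholesterol. The SREBP factors, encoded by Srebf1 and Srebf2, are held in the endoplasmic reticulum by Scap and Insig1 while sterol is plentiful, and when it is scarce they are cut loose and activate genes of the same enzymes. In the embryo, dividing cells need membrane sterol, and the hepatoblast lineage gives rise to the hepatocytes that export lipoproteins.

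SREBP factors bind the sterol response element in promoters, usually beside boxes for NF-Y and Sp1. Promoter windows from RefSeq, on GRCm38.p6 and covering 250 bases before to 50 after each start, matched 22 of the 28 genes, and were searched on both strands for the letters TCACNCCAC, CACGTG (an E-box), CCAAT (the NF-Y box) and GGGCGG (the Sp1 box). None of these letter strings lies inside another. CCAAT was in the windows of 18 of the 22 genes, which is 81.8%, against 41.1% of the 27025 genes in the table. GGGCGG was in 19 of the 22, 86.4% against 38.2%, and CACGTG in 5, 22.7% against 8.09%. TCACNCCAC was in only 1, that of Hmgcs1, 4.55% against 1.44%. A match is a description of the letters, and no match says only that they are not in this window. The stretch before the start of Hmgcs1, which encodes HMG-CoA synthase, the second step of the pathway, is shown because it alone holds the sterol response element letters, in capitals, 0.137 kb before the start, at chr13:119690154-119690282 on the plus strand.
Hmgcs1: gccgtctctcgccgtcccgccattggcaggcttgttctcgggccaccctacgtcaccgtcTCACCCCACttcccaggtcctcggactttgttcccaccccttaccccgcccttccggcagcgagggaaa

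The E-box was in the windows of Hsd17b7, Insig1, Sc5d, Dhcr7 and Scap. The first 3 of these are shown, chosen after their values were seen, because they were at least 2-fold lower in the E10.5 Klf1+ cells than in both other lineages, as given below, whereas Dhcr7 and Scap were not. Capitals mark CACGTG and, in Hsd17b7, ATTGG, which is CCAAT on the other strand. The E-box starts 0.143 kb before the start of Hsd17b7 (chr1:169969303-169969408, minus strand), 0.101 kb before that of Insig1 (chr5:28071251-28071356, plus strand) and 0.098 kb before that of Sc5d (chr9:42264353-42264458, minus strand).
Hsd17b7: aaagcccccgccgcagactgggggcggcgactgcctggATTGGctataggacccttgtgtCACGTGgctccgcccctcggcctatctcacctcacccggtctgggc
Insig1: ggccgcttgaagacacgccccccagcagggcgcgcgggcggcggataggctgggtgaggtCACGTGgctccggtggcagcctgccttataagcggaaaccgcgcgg
Sc5d: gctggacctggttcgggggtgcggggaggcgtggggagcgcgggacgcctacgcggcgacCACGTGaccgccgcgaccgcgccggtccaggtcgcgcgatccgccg

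Over all 653 cells, levels were compared between genes only per length, as RPM per kb of exon not shared with another gene. On that scale Pmvk, the phosphomevalonate kinase, was highest at 72.6, followed by Scd2, a stearoyl-CoA desaturase that makes monounsaturated fatty acids, at 69.3 and Acat2, a thiolase listed at the entry of the pathway, at 33.6. Lss (lanosterol synthase), Idi1 (isopentenyl diphosphate isomerase) and Fdps (farnesyl diphosphate synthase) were lowest among genes with reads, at 0.85, 0.66 and 0.63. Mvd, the mevalonate diphosphate decarboxylase, was listed at 0 in every cell, which allows at most 3 reads in the whole table at the limit used here. Only uniquely aligned reads had been counted, and the share of 50-base windows of a gene's transcripts that also occur in a transcript of another gene was 0% for Mvd and Pmvk, 26.2% for Fdps, 25.3% for Idi1, 26.5% for Fdft1, 30.4% for Acaca and 39.1% for Acat2, whose largest partner was Acat3. The values of these last 5 genes are uncertain for that reason, as is that of Tm7sf2, which shares 12.1% of its exon bases with Vps51. Hmgcs1, Scap and Fdft1 share 12.1%, 13.2% and 18.3% of theirs with a gene on the other strand, and since a strand setting is not given their values are uncertain as well. Of the 28 genes 27 had reads. Mvd, Idi1 and Fdps did not reach 5 RPM in any lineage pair, so 25 genes entered most comparisons.

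The 18 sterol synthesis enzymes together took 1205 RPM in the E10.5 Pdgfra+ cells, 1018 RPM in the Afp+ cells and 606 RPM in the E10.5 Klf1+ cells. The spread was judged over the 5 library pools, which were sequenced as separate pools and were used as technical batches wherever a pool held at least 5 cells of a set. The pools ranged from 955 to 1330 RPM in the Pdgfra+ cells, from 953 to 1158 RPM in the Afp+ cells and from 579 to 686 RPM in the Klf1+ cells. The ranges of the Pdgfra+ and Afp+ cells overlapped, and every pool of the Klf1+ cells lay below every pool of both. Single cells spread far more widely, from 1.7 to 6371 RPM in the Pdgfra+ cells with a median of 948, from 4.3 to 5037 RPM in the Afp+ cells with a median of 912, and from 4.0 to 2547 RPM in the Klf1+ cells with a median of 487. A median Pdgfra+ or Klf1+ cell had more than 10 reads of 5 of the 18 enzymes and a median Afp+ cell of 4. The 11 proliferation genes summed to 2922 RPM in the Pdgfra+, 2390 RPM in the Afp+ and 3251 RPM in the Klf1+ cells, and their pools overlapped, at 2578 to 3406, 2227 to 2862 and 2319 to 3710 RPM.

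**Figure D1:**
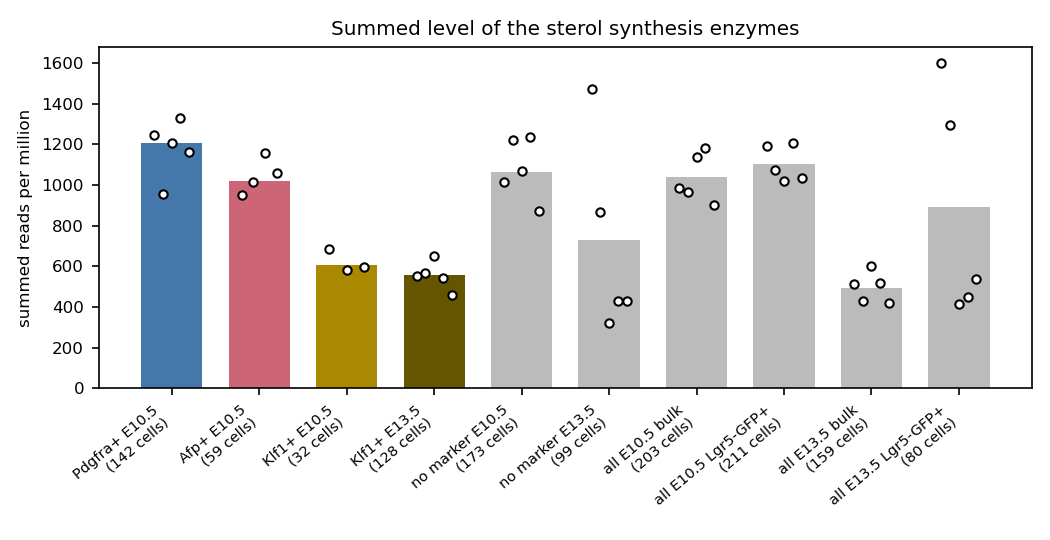
Summed RPM of the 18 sterol synthesis enzymes (vertical axis) in each cell set (horizontal axis). Bars give the value over all cells of the set and open circles the library pools with at least 5 cells. The Klf1+ pools lie between 461 and 686 RPM at both stages, and the E10.5 Pdgfra+ and Afp+ pools between 953 and 1330 RPM.

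The sum hid differences between the arms. The mevalonate enzymes summed to 454 RPM in the Pdgfra+ cells, with pools from 364 to 597, against 225 RPM in the Afp+ cells, with pools from 159.4 to 337, and the ranges did not overlap. The enzymes after lanosterol summed to 533 RPM in the Pdgfra+ and 587 RPM in the Afp+ cells, with pools from 259 to 684 and from 539 to 598. The fatty acid enzymes summed to 846 RPM in the Pdgfra+ cells, 1112 RPM in the Afp+ cells and 346 RPM in the E10.5 Klf1+ cells. As sums, Afp+ cells thus had about the Pdgfra+ level of the late sterol enzymes with a lower level of the early ones. Of the 8 late genes 5 were higher and 3 lower in the Afp+ cells, beside 4863 higher and 6723 lower of all genes. Cyp51 and Msmo1 were lower, at log2 ratios of -0.88 and -0.50. For Nsdhl, at 0.21, 1 Afp+ cell held 70% of the reads of its set. The fatty acid ranges over pools, 695 to 1316 RPM and 667 to 1253 RPM, overlapped.

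The first comparison asked how hepatoblasts differ from the mesenchymal cells around them. Of the 25 genes with at least 5 RPM in either lineage, 5 were at least 2-fold higher in the Afp+ than in the Pdgfra+ cells, where 16.6% of all genes were, and 3 were at least 2-fold lower, where 31% of all genes were. Under another scaling of the libraries (TMM) the counts were 6 and 2, and the shares of all genes were not taken under that scaling. The median log2 ratio of the 25 was -0.02, beside -0.25 over all 11586 genes compared. Of the 8 genes past 2-fold, 3 had the same sign in every pool and 5 stayed past 2-fold whichever cell was left out.

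The higher genes were Stard4, Acaca, Tm7sf2, Ebp and Hsd17b7. Stard4 carries sterol between membranes in the cytosol. Its cells ranged from 0 to 2326 RPM with a median of 9.20 in the Afp+ set and from 0 to 3166 RPM with a median of 0 in the Pdgfra+ set, and 52.5% of Afp+ cells (95% Clopper-Pearson interval 39.1 to 65.7) but 18.3% of Pdgfra+ cells (12.3 to 25.7) had more than 10 reads. Summed, it stood at 165.4 RPM (exact 95% Poisson interval 162.4 to 168.3) against 53.5 RPM (52.5 to 54.6), a log2 ratio of 1.63. The sign was the same in 4 of 4 pools, with log2 ratios from 2.31 to 8.76, all above the value over all cells. Poisson intervals cover the counting of reads only and Clopper-Pearson intervals the number of cells only. Cells of a set are not independent samples, so neither covers the spread between embryos. Shares of cells and median cells are given over all pools together throughout, although the sets were spread unevenly over the pools. At E10.5 pools 1 to 5 held 2, 33, 10, 5 and 9 Afp+ cells and 29, 20, 30, 37 and 26 Pdgfra+ cells. They held 2, 4, 6, 14 and 6 Klf1+ cells. The part of the pools in these shares and medians was not tested. One Pdgfra+ cell held 36% of that set's Stard4 reads, and leaving out each cell in turn gave log2 ratios from 1.32 to 2.27.

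Acaca, the acetyl-CoA carboxylase that starts fatty acid synthesis, was at 123.2 RPM in the Afp+ and 38.4 RPM in the Pdgfra+ cells. Its log2 ratio was 1.68, and between 1.4998 and 1.90 without any 1 cell. It was again higher in 4 of 4 pools, but by 0.06 to 2.92. More than 10 reads were seen in 44.1% of Afp+ and 34.5% of Pdgfra+ cells. Fasn, the fatty acid synthase, was at 188.6 RPM against 138.2 RPM, a log2 ratio of 0.45, and Sc5d, the lathosterol oxidase of the last steps, at 110.985 RPM against 66.1 RPM, a log2 ratio of 0.75. Both were below 2-fold, and higher in 4 of 4 pools. The other 3 calls were less firm. Tm7sf2 (a sterol reductase, log2 ratio 1.07), Ebp (the sterol isomerase, 1.02) and Hsd17b7 (the 3-keto sterol reductase, 1.01) each dropped below 2-fold when 1 cell was left out, with lowest values of 0.39, 0.21 and 0.68, and Ebp had the same sign in only 2 of 4 pools.

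The 3 lower genes were Pmvk, Acat2 and Lss. Pmvk was at 50.4 RPM in the Afp+ cells, with a median cell of 1.78 RPM and a highest of 476, and at 124.3 RPM in the Pdgfra+ cells, with a median cell of 2.01 RPM and a highest of 4042. Its log2 ratio was -1.30, lower in 4 of 4 pools, and the median cells were close while the highest were not. Acat2 was at 69.7 RPM against 153.4 RPM, with more than 10 reads in 47.5% (34.3 to 60.9) and 69.01% (60.7 to 76.5) of cells. Its log2 ratio was -1.14, with the same sign in 3 of 4 pools. Lss was low in both, at 3.55 RPM against 15.4 RPM, and 1 Afp+ cell held 70% of the Afp+ reads. Hmgcs1 had a log2 ratio of -0.95 and Mvk, the mevalonate kinase, of -0.55. All 4 mevalonate genes that passed the filter thus lay lower in the Afp+ cells, also under TMM. Of all 11586 genes compared 6723 lay lower, so the direction alone sets these genes little apart. Hmgcs1 was lower in only 2 of 4 pools and Mvk in 3 of 4.

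None of the 4 regulators was past 2-fold. Srebf1, whose product drives mostly fatty acid genes, was at 46.1 RPM against 36 RPM, and Srebf2, whose product drives mostly sterol genes, at 55.6 RPM against 94.7 RPM, log2 ratios of 0.36 and -0.77. Scap was at 90.6 RPM against 48.1 RPM, and Insig1, itself a target of the SREBP factors, at 40.5 RPM against 60.7 RPM. The direction for Scap was shared by only 1 of 4 pools, with log2 ratios from -0.62 to 0.68. Of these 4 genes Insig1 alone kept its sign in 4 of 4 pools, from -1.18 to -0.52. Leaving out library pool 2, which held 33 of the 59 Afp+ cells, left 3 genes at least 2-fold higher and 1 lower.

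**Figure D2:**
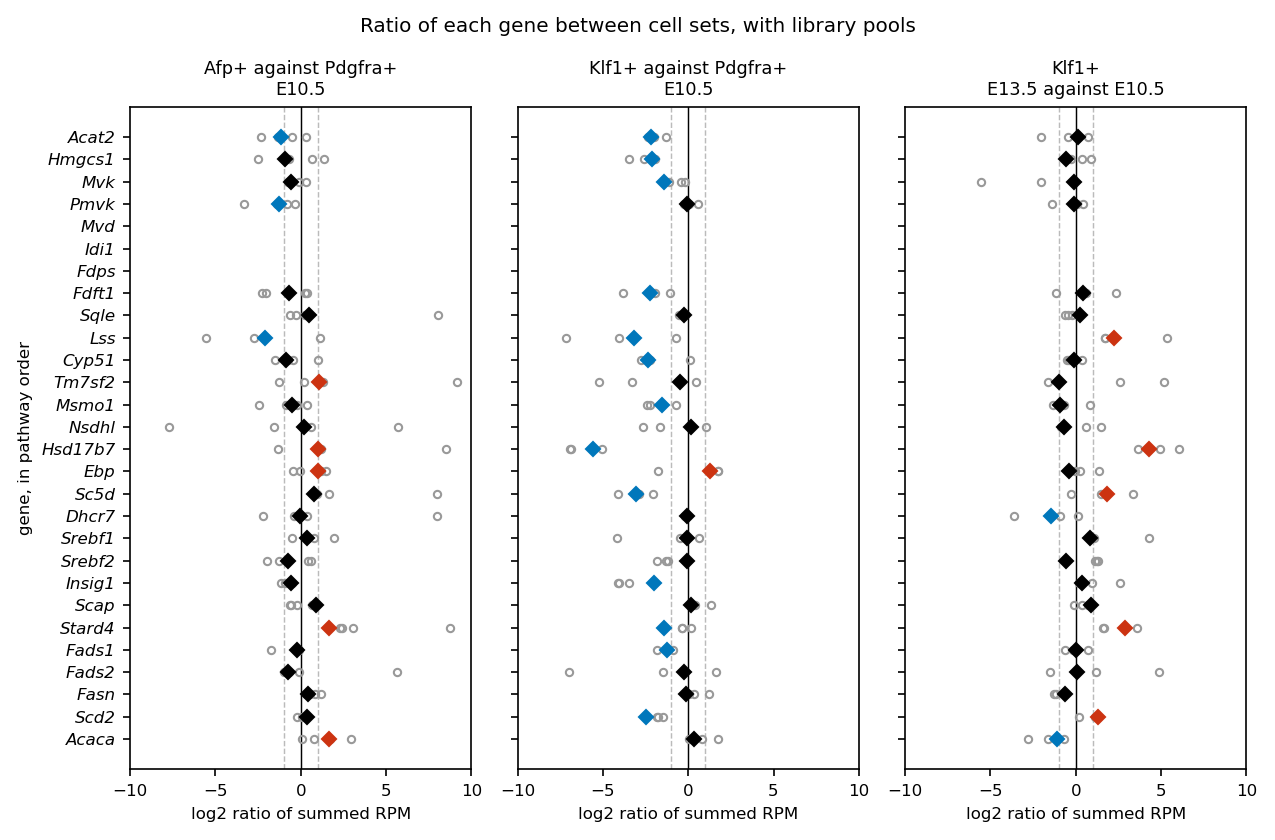
Log2 ratio of summed RPM (horizontal axis) for each gene that passed the filter (vertical axis, in pathway order) in 3 comparisons. Diamonds give the ratio over all cells, red or blue where at least 2-fold higher or lower, grey circles the library pools, and dashed lines mark 2-fold. The blue diamonds are 13 in the middle panel and 3 in the left one.

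The second comparison set the red cell precursors of E10.5 against the mesenchymal cells. Of 25 genes, 13 were at least 2-fold lower in the Klf1+ cells, where 36.8% of all genes were, and 1 was at least 2-fold higher, where 18.6% were. The median log2 ratio was -1.27, beside -0.29 over all 11378 genes compared, and 12 of the 14 calls stood whichever single cell was left out. Against the Afp+ cells, 13 of 24 genes were at least 2-fold higher in the Afp+ than in the Klf1+ cells, where 29.1% of all genes were, and 1 was lower, where 23.1% were, but only 8 of these 14 calls stood whichever cell was left out. Within pools the sign was the same in every pool for 11 of the 14 calls against the Pdgfra+ and 9 of the 14 against the Afp+ cells. These comparisons share the Klf1+ cells, and the first shares its Pdgfra+ cells with the one before. Of the Afp+ cells, 53 of 59 were Lgr5-GFP+, whereas all 32 Klf1+ cells were bulk. Lineage and sort therefore cannot be told apart between the Afp+ and Klf1+ cells. The genes at least 2-fold lower in the Klf1+ cells than in both other lineages were 11 of the 24 that passed both filters, or 45.8%, against 19.1% of all 9905 genes that did. They were Acat2, Hmgcs1, Fdft1, Cyp51, Msmo1, Hsd17b7, Sc5d, Insig1, Stard4, Fads1 and Scd2. For Afp+ over Klf1+ cells, Acat2, Hmgcs1, Msmo1 and Fads1 dropped below 2-fold without 1 cell, with lowest log2 ratios of 0.76, 0.93, 0.42 and 0.76, and Acat2 turned to -0.41 when more than 5 reads set a lineage. Stard4 did so against the Pdgfra+ cells, which leaves 6 genes that stood in both comparisons whichever cell was left out. Of these 6, Fdft1 had the same sign in only 2 of 3 pools against the Afp+ cells. Cyp51 had it in only 2 of 3 against the Pdgfra+ cells.

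Hsd17b7 stood furthest apart. Of the 32 Klf1+ cells, 30 had no read and 1 had more than 10, which is 3.12% (0.0791 to 16.2), against 25.4% (14.98 to 38.4) of Afp+ and 20.4% (14.1 to 27.995) of Pdgfra+ cells. Summed, it was at 0.868 RPM against 84.8 RPM and 42.1 RPM, log2 ratios of 6.61 for Afp+ over Klf1+ and -5.60 for Klf1+ over Pdgfra+, in 3 of 3 pools each. The 1 Klf1+ cell held 97% of the reads of its set. In the other lineages about 1 cell in 4 or 5 passed 10 reads, so this gene was sparse everywhere.

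Sc5d was at 7.86 RPM in the Klf1+ cells, against 110.985 RPM in the Afp+ and 66.1 RPM in the Pdgfra+ cells. More than 10 reads were seen in 15.6% (5.28 to 32.8) of Klf1+, 54.2% (40.8 to 67.3) of Afp+ and 37.3% (29.4 to 45.8) of Pdgfra+ cells. Its log2 ratio of Klf1+ over Pdgfra+ was -3.07, lower in 3 of 3 pools, and stayed at -2.72 or lower without any 1 cell. Insig1 was at 14.9, 40.5 and 60.7 RPM in the same order, with log2 ratios of -4.11 to -3.48 against the Pdgfra+ cells within pools and -2.03 over all, with more than 10 reads in 18.8% (7.21 to 36.4), 42.4% (29.6 to 55.9) and 50.7% (42.2 to 59.2) of cells. Over all pools together, both genes thus had more than 10 reads in a smaller share of Klf1+ cells. Such a share also falls when the level in each cell falls, so it does not separate fewer cells from a lower level. Median depth was 1310557 reads in the Klf1+ and 1207722 in the Pdgfra+ cells, and its part was not tested.

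Scd2 was, per length, the most abundant of the fatty acid genes. Klf1+ cells ranged from 0 to 464 RPM with a median of 56.03, Afp+ cells from 0.904 to 2450 RPM with a median of 484, and Pdgfra+ cells from 0 to 7540 RPM with a median of 355. The sums were 96.5, 691 and 529 RPM, log2 ratios of -2.45 for Klf1+ over Pdgfra+ and 2.84 for Afp+ over Klf1+, in 3 of 3 pools each. Leaving out each cell in turn gave -2.66 to -2.33 and 2.76 to 3.05. Within pools both differences were smaller, from -1.83 to -1.46 and from 1.52 to 2.11, and the sets were spread unevenly over the pools, with 33 of the 59 Afp+ but 4 of the 32 Klf1+ cells in pool 2. The sets overlapped cell by cell, but each of the 3 pools had the same direction. Fads1, a desaturase of polyunsaturated fatty acids, was at 43.2, 88.5 and 104.1 RPM, whereas Fasn, at 128.2, 188.6 and 138.2 RPM, was within 2-fold in both comparisons, and within each of the 3 pools it was higher in the Klf1+ than in the Pdgfra+ cells.

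Hmgcs1, of the mevalonate arm, was at 21.5 RPM in the Klf1+ and 94.1 RPM in the Pdgfra+ cells, and its median cell was at 0 and 13.1 RPM. Its log2 ratio of -2.13 held in 3 of 3 pools. Fdft1, the squalene synthase, had a log2 ratio of -2.22, Cyp51, the lanosterol demethylase, of -2.33 and Acat2 of -2.20, and Msmo1, the methylsterol oxidase, of -1.51, each at least 2-fold without any 1 cell, although Cyp51 had the same sign in only 2 of 3 pools. Stard4 was lower, at 19.8 RPM against 53.5 RPM, but 28.1% (13.7 to 46.7) of Klf1+ cells had more than 10 reads against 18.3% of Pdgfra+ cells, and the ratio fell short of 2-fold without the 1 Pdgfra+ cell named above, at -0.79, with pools from -0.38 to 0.17. The 2-fold call for Stard4 therefore rested on that cell. For Afp+ over Klf1+ cells its log2 ratio was 3.06, with a lowest value of 2.76.

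Other genes went the other way or stayed level. Ebp was at 89.02 RPM in the Klf1+ and 36.2 RPM in the Pdgfra+ cells, with more than 10 reads in 53.1% (34.7 to 70.9) and 24.6% (17.8 to 32.6) of cells, a log2 ratio of 1.30 that held in 2 of 3 pools and reached 0.86 without 1 cell. Pmvk was at 118.9 RPM and 124.3 RPM, yet 68.8% (49.99 to 83.9) of Klf1+ cells had more than 10 reads against 42.3% (34.02 to 50.8) of Pdgfra+ cells, and it was lower in the Afp+ than in the Klf1+ cells by a log2 ratio of -1.24. Sqle, the squalene epoxidase, Nsdhl, Dhcr7 and Srebf1 had log2 ratios between -0.25 and 0.14. For Nsdhl, 1 Klf1+ cell held 54% of the reads, the ratio was -0.92 without it, and pools ran from -2.65 to 1.07. Srebf2 was level in the sum, at 88.3 RPM and 94.7 RPM, but 1 Klf1+ cell at 3073 RPM held 69% of the reads, and without it the log2 ratio was -1.76. The median cell stood at 12.96 RPM in the Klf1+ and 3.12 RPM in the Pdgfra+ set, so the cells of middle rank and the sums without that cell went opposite ways.

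**Figure D3:**
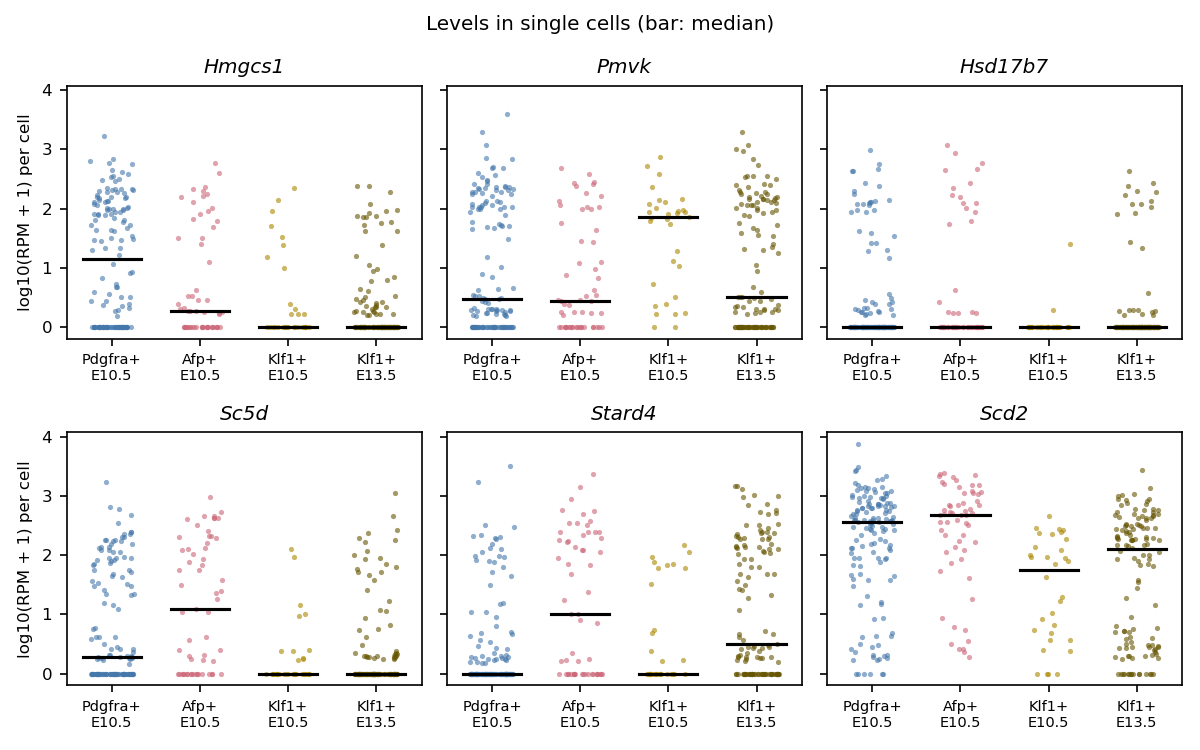
Level in each cell as log10(RPM + 1) (vertical axis) for 6 genes in 4 cell sets (horizontal axis), with 1 point a cell and a bar at the median. For Hsd17b7 1 of the 32 E10.5 Klf1+ cells has more than 10 reads.

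**Figure D4:**
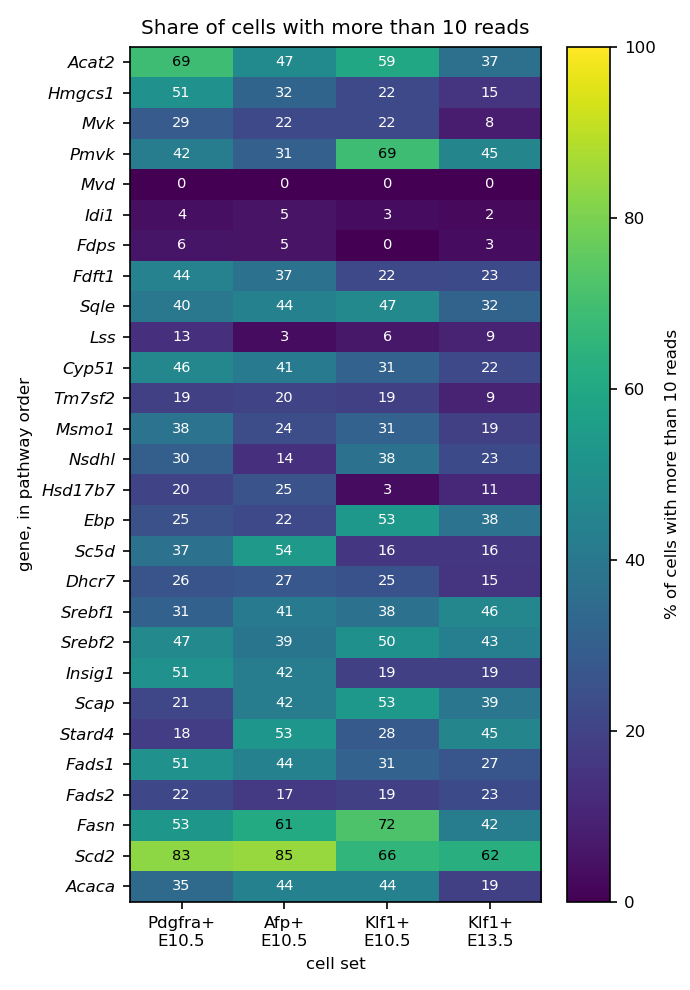
Percent of cells with more than 10 reads (colour and printed value) for each gene (rows, in pathway order) in 4 cell sets (columns). Values are over all library pools together. Scd2 is highest in Afp+ cells, and Pmvk, Ebp and Fasn are seen in more E10.5 Klf1+ than Pdgfra+ cells, while Sc5d, Insig1 and Hmgcs1 are seen in fewer.

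The stage comparison within 1 lineage was possible for the Klf1+ cells. Between E10.5 and E13.5 the summed sterol enzymes stood at 606 and 555 RPM, with overlapping pools of 579 to 686 and 461 to 651 RPM. Of 25 genes, 5 were at least 2-fold higher at E13.5, where 14% of all genes were, and 2 lower, where 16.3% were, with a median log2 ratio of 0.03 beside -0.04 over all genes. The higher genes were Stard4, Scd2, Hsd17b7, Sc5d and Lss, and the lower ones Dhcr7 and Acaca. Sc5d and Lss reversed to -0.14 and -1.58 when more than 5 reads set a lineage, and Sc5d had more than 10 reads in 15.6% of cells at both stages and the same sign in 2 of 3 pools. Srebf2, at a log2 ratio of -0.56 over all cells, was higher at E13.5 in each of the 3 pools, by 1.15 to 1.28, beside the 1 E10.5 cell named above.

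Stard4 was at 146.6 RPM at E13.5 and 19.8 RPM at E10.5. Its cells reached 1488 RPM at E13.5 with a median of 2.11 and 147.7 RPM at E10.5 with a median of 0, and 45.3% (36.5 to 54.3) against 28.1% (13.7 to 46.7) had more than 10 reads. The log2 ratio was 2.89, higher in 3 of 3 pools and at least 2.76 without any 1 cell. The E13.5 pools of Stard4 ranged from 70.98 to 255 RPM and the E10.5 pools from 12.05 to 42.003 RPM, without overlap. Scd2 was at 236 RPM and 96.5 RPM, a log2 ratio of 1.29, higher in 3 of 3 pools but by 0.20 to 1.29. Hsd17b7 rested on few cells, with more than 10 reads in 10.9% of cells at E13.5 and in 3.12% at E10.5. Dhcr7, the last reductase of the pathway, and Acaca had log2 ratios of -1.46 and -1.11 that each fell short of 2-fold without 1 cell. The E13.5 Klf1+ cells carried more erythroid marker reads, as given above, and the part of that in these differences was not tested.

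The sort comparison could be made within the E10.5 Pdgfra+ cells, between 66 Lgr5-GFP+ and 76 bulk cells. Of 26 genes, 2 were at least 2-fold higher in the Lgr5-GFP+ cells and 2 lower, each where 14.4% of all genes were. Under TMM the counts were 1 and 3, without a share of all genes under that scaling. Tm7sf2 was at 25.9 RPM against 9.41 RPM and was the only one of the 4 that stayed past 2-fold without any 1 cell, at 1.05 or more. Dhcr7 was at 58.9 RPM against 29.4 RPM, Idi1 at 2.04 RPM against 5.43 RPM and Stard4 at 31.2 RPM against 74.5 RPM, and the sign for Stard4 was shared by only 1 of 5 pools. None of the 4 had the same sign in every pool. Mesothelium markers summed to 892 RPM in the Lgr5-GFP+ and 448 RPM in the bulk cells, and the median cell had 6757 against 5443 genes detected, and the part of these was not tested. Scd2 was at 528 RPM and 530 RPM, Fdft1 at 108.4 RPM and 106.3 RPM and Fads1 at 103.9 RPM and 104.3 RPM. The bulk set holds every Liv2+ cell, with or without GFP, so it can include cells of the same kind as the other sort.

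Over all cells of the 4 groups, the summed sterol enzymes stood at 1105 RPM in E10.5 Lgr5-GFP+, 1040 RPM in E10.5 bulk, 889 RPM in E13.5 Lgr5-GFP+ and 494 RPM in E13.5 bulk cells. None of 25 genes differed 2-fold between the sorts at E10.5, where 10.7% of all genes were higher and 10.8% lower. From E10.5 to E13.5, 14 of 25 genes were at least 2-fold lower in the bulk sort, where 32.2% of all genes were, and 0 were higher, where 13.3% were. Msmo1 went from 98.5 to 15.9 RPM and Cyp51 from 98.3 to 21.9 RPM, both lower in 5 of 5 pools. The E13.5 bulk group is mostly Klf1+ cells, 78.6%, while the E10.5 bulk group has 15.8%, and a change of cell makeup and a change within cells cannot be told apart in these group sums. In the Lgr5-GFP+ sort, 13 of 25 genes were at least 2-fold lower at E13.5, where 23% of all genes were, and 2, Ebp and Srebf1, higher, where 23.3% were. Acaca went from 71.2 to 9.98 RPM and Scd2 from 527 to 104.5 RPM, both lower in 5 of 5 pools. The summed sterol enzymes went opposite ways between pools. At E13.5 they stood at 1598 and 1294 RPM in pools 1 and 2, above 1190 and 1075 RPM at E10.5. In pools 3, 4 and 5 they stood at 413, 448 and 537 RPM, below 1021, 1205 and 1034 RPM. Against the E13.5 bulk pools, the Lgr5-GFP+ sum was higher in pools 1, 2 and 5 and lower in pools 3 and 4. Of the 80 E13.5 Lgr5-GFP+ cells 67 passed for no marker. The 99 E13.5 cells without a marker carried 798 RPM of endothelial and 858 RPM of leukocyte markers, against 135.7 and 16.4 RPM in the E10.5 cells without one, and the part of these in the stage difference was not tested. Between these cells, 12 of 25 genes were at least 2-fold lower at E13.5, where 22.3% of all genes were, and 0 were higher, where 22.4% were. Scd2, Sqle and Acaca were lower in 5 of 5 pools, with log2 ratios of -1.72, -1.91 and -2.99.

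Between the sorts at E13.5, 5 of 25 genes were at least 2-fold higher in the Lgr5-GFP+ cells, where 36.1% of all genes were, and 5 were lower, where 20.1% were. Hmgcs1 was higher in 5 of 5 pools, at 135.2 RPM against 27.7 RPM, and Msmo1, Fdft1, Insig1 and Cyp51 were higher with log2 ratios of 2.41, 2.16, 1.53 and 1.06, each with at least 1 pool of the opposite sign. Stard4, at 44.9 RPM against 127.5 RPM, and Scd2 and Sqle, at log2 ratios of -1.20 and -1.25, were lower in 5 of 5 pools. Srebf2 was lower by a log2 ratio of -1.27 in 4 of 5 pools, and Lss had 3 reads in all in the Lgr5-GFP+ cells and stood at 6.48 RPM in the bulk cells. Between these sorts all 11 erythroid markers were at least 2-fold lower in the Lgr5-GFP+ cells, while mesenchyme markers summed to 4376 RPM against 142.1 RPM, endothelial markers to 966 RPM against 33.7 RPM and leukocyte markers to 1015 RPM against 153.6 RPM. The part of these in the differences was not tested.

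Genes around the pathway were compared in the same way. In the Afp+ against Pdgfra+ comparison, of 16 genes of sterol uptake, efflux and esters 13 passed the filter, 5 at least 2-fold higher and 2 lower in the Afp+ cells. These counts and those of the next lists stand beside 16.6% of all genes higher and 31% lower, so that a count such as 2 of 13 higher is no more than the background. Apoe, a lipoprotein component, was at 6474 RPM against 131.2 RPM, Abca1, the cholesterol efflux pump, at 171.9 RPM against 10.2 RPM, Soat2, a cholesterol esterifying enzyme, at 40.2 RPM against 0.227 RPM and Vldlr, a lipoprotein receptor, at 58.01 RPM against 14.9 RPM, each higher in 4 of 4 pools. Of 11 genes of sterol control 10 passed, 3 higher and 1 lower. Nr1h3, the oxysterol receptor LXR alpha, was at 28.3 RPM against 0.0341 RPM, while Mylip, a ubiquitin ligase that lowers lipoprotein uptake, was at 2.75 RPM against 16.6 RPM.

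The other fatty acid synthesis genes, 19 of 25 past the filter, held 5 higher and 2 lower genes, led by Dgat2, which makes triglyceride, at 104.7 RPM against 9.34 RPM, and Acsl1 at 48.3 RPM against 6.73 RPM, with Me1 lower at 6.15 RPM against 27.6 RPM. Of 12 fatty acid oxidation genes past the filter 4 were higher and 1 lower, among them Acadm at 138.4 RPM against 29.5 RPM. Of 13 further genes of sterol synthesis or of other uses of isoprenoid units, 2 were higher and 2 lower. Nus1 and Fntb were higher and Ggps1 was among the lower, and these belong to the other uses. Of 11 proliferation genes 0 were higher and 1, Plk1, lower. Of 3 bile acid synthesis genes past the filter Cyp27a1 was lower. In the Klf1+ against Pdgfra+ comparison this mixed list of 13 genes had 1 higher and 0 lower, where 18.6% and 36.8% of all genes were. Its median log2 ratio was 0.12, beside the -1.27 of the 25 genes described above. Because the list is mixed, its median is not that of further sterol enzymes alone.

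Across single cells the genes moved together only weakly. With a minimum of 3 reads in 50% of cells, 7 of the 28 genes could be used in the E10.5 Pdgfra+ cells, and the median Spearman correlation of their 21 pairs was 0.20, beside 0.10 for all pairs of 3238 genes. In the 59 Afp+ cells 6 genes gave 0.18 beside 0.07, and in the E13.5 Klf1+ cells 3 genes gave 0.18 beside 0.09. Points are cells of the same libraries and depth range, and in counts this sparse such values are no finding. Over the Pdgfra+ cells the non-member gene whose level followed the summed sterol enzymes most closely was Idh1, a cytosolic source of NADPH, at 0.37, with 0.18 to 0.55 within pools, followed by Rnf114, Tcea1, Cadm1, Thap11, Zmiz1, Epha4, Samm50, Sertad2 and Sf3a1 down to 0.29. These were the highest of 3231 non-member genes ranked, whose median was 0.06. Rnf114 ran from -0.11 to 0.56 within pools, and Tcea1, Thap11, Epha4 and Sf3a1 also had a negative lowest pool value. The summed sterol enzymes also correlated with the number of genes detected, at 0.58 in the E10.5 Klf1+ cells and 0.18 to 0.20 in the other sets, and with reads a cell at 0.31 in the E10.5 Klf1+ cells. The summed proliferation genes correlated with them at -0.07 in the Pdgfra+, 0.23 in the Afp+, 0.36 in the E10.5 Klf1+ and 0.05 in the E13.5 Klf1+ cells.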

How the data were processed

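The authors aligned single-end 50-base Smart-seq2 reads with STAR 2.6.0c to GRCm38, counted uniquely aligned reads per Ensembl gene with featureCounts of Subread 1.6.2, and deposited raw counts of the 653 cells that passed their quality filters. Whether counting used strand is not given in the sources used here. Only these counts were used, through 653 columns matched to the sample labels, with 0 columns of cell values left unused. A normalised table was not used. Depth was 463347 to 2279700 reads a cell.

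Symbols came from a gene name table, and exons and 50-base windows from GENCODE M21 (GRCm38), which is not the release the authors counted with. For each set of at least 10 cells, reads were summed and divided by the summed total (RPM). Ratios used genes with at least 5 RPM in either arm, an arm at 0 was set to 3 reads, and a gene counted as different at 2-fold. With 1 sample a group no test was run. Spread is given by library pool (at least 5 cells) and by leaving out each cell, an alternative chosen after seeing the data. The ratio code was tested on simulated data. edgeR 4.0.16 gave TMM factors. Other alternatives were the marker threshold (5 or 50 reads), cells with several markers, mean RPM per cell, totals without globin genes, thinning to 100000 reads, the filter, a 1.5-fold limit and subsets of pools and sorts.

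All 28 genes are named, with up to 4 genes of each further list by size of the Afp+ against Pdgfra+ ratio and the 10 genes most correlated with the summed sterol enzymes. Some genes of these lists are not reported here. Genes and lists were chosen with earlier results of these data known.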

Additional observations from a re-analysis of the deposited data

How the results depend on the processing

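No paired analysis was possible because each sample is 1 cell, so its number only names it. Library pools hold cells of both arms, and ratios within pools were taken instead. These went against the ratio over all cells in every pool for Fasn in Klf1+ against Pdgfra+, Scap in Afp+ against Klf1+, and Sqle and Srebf2 in the Klf1+ stages, none of them past 2-fold over all cells. The counts of genes at least 2-fold higher or lower moved by more than 1.5 times in 34 of 170 alternative settings. The share of all genes was not taken under these settings, so their counts here and above have no background beside them. For Afp+ against Pdgfra+ cells, keeping cells with several markers left 3 higher genes, a 1.5-fold limit gave 8 lower, pools 1 and 2 alone 6 lower and pools 3 to 5 alone 3 higher, and leaving out 1 pool gave 3 to 5 higher and 1 to 5 lower. For Klf1+ against Pdgfra+ cells, a threshold of 5 reads gave 8 lower and pools 3 to 5 alone 0 higher, and leaving out 1 pool gave 1 higher and 12 to 14 lower. For Afp+ against Klf1+ cells, 2 were lower at 5 reads, with mean RPM per cell, after thinning and at 1.5-fold, and leaving out 1 pool gave 11 to 14 higher and 0 to 2 lower. For the Klf1+ stages, 5 were lower at 5 reads and 7 at 1.5-fold, and leaving out 1 pool gave 5 to 8 higher and 2 to 5 lower. For the sorts of Pdgfra+ cells, 5 reads gave 1 higher and 1 lower, 50 reads 4 higher, TMM 1 higher, the filter on the mean 1 lower, 1.5-fold 4 higher, pools 1 and 2 alone 6 higher and 7 lower, and pools 3 to 5 alone 1 higher and 0 lower, while leaving out 1 pool gave 1 to 6 higher and 0 to 3 lower. Outside these counts, mostly for ratios of single genes, 1216 alternative values were scored as moved and 692 as the same, by limits set for each measure. Among single genes past 2-fold, 6 ratios reversed. At 5 reads, Lss became 0.63 for Klf1+ against Pdgfra+ cells, Acat2 -0.41 for Afp+ against Klf1+, and for the Klf1+ stages Lss became -1.58 and Sc5d -0.14. For the sorts, Stard4 ran from -2.32 without pool 3 to 1.53 without pool 1 and became 1.37 in pools 3 to 5. The cause was not tested. TMM moved the median log2 ratio of all genes from -0.25 to -0.03 for Afp+ against Pdgfra+, from -0.29 to -0.17 for Klf1+ against Pdgfra+ and from 0.02 to 0.15 for Afp+ against Klf1+ cells.

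In 8 combinations a subset left under 10 cells in 1 arm and was not run: bulk cells alone for Afp+ against Pdgfra+, pools 1 and 2 or Lgr5-GFP+ cells alone for the 3 comparisons with Klf1+ cells, and bulk cells alone for Afp+ against Klf1+. With 32 Klf1+ cells at E10.5, 1 cell held most reads of Hsd17b7 and Srebf2, and genes under the filter of 5 RPM were not compared.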
